A study of Drosophila melanogaster with 13 samples.

Results

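The comparison is of MSL1 ChIP-seq peaks in adult *Drosophila melanogaster* males with and without a deletion in the CLAMP-binding domain (CBD) of MLE. The CBD is the C-terminal region through which this RNA helicase binds the protein CLAMP. The members are all 577 peaks of the deposited MSL1 list of MLEΔCBD-FLAG males and all 293 peaks of the MSL1 list of MLEWT-FLAG males, 870 of the 6400 peaks in the 6 lists of the series. A peak of one list was called shared when it overlapped a peak of the other list by at least 1 bp, gained when it was only in the MLEΔCBD list, and lost when it was only in the MLEWT list.

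Both lines are homozygous for the loss-of-function allele mle9 (mle9/mle9) in a y1w1118 background, so the only MLE protein comes from a transgene. In MLEΔCBD-FLAG males the transgene Ubi:mleΔCBD is homozygous, and its MLE protein is tagged with 3 FLAG epitopes. This protein lacks the first part of the CBD as the paper maps it. In MLEWT-FLAG males the transgene Ubi:mleWT, which carries the same tag, is present once over the third chromosome balancer TM6. Both transgenes sit at the same landing site, 86Fb on chromosome 3, and are driven by the promoter of *Ubi-p63E*, a ubiquitin gene transcribed in most cells. The lines therefore also differ in transgene copies and in the balancer, and these differences cannot be told apart from the deletion. By the paper's immunoblots the level of MLE protein was similar in the lines, with no significant difference in MSL1 or MSL2. The paper also describes the MLEΔCBD males as weak. Chromatin came from whole flies 2 to 3 days old, with 2 libraries per protein and line. The deposited files hold 1 MSL1 list per line. Each list gives a pair of peak sets that are not labelled with a library, so no difference between the lines was set against replicate error and no test was made. The 95% Wilson intervals given here cover the counting of peaks only, and they treat neighbouring peaks as independent.

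MSL1 is the scaffold of the male-specific lethal (MSL) complex, which raises transcription of the single male X chromosome. Its N-terminal part dimerises and binds MSL2, the subunit made only in males, and its C-terminal part binds MSL3 and the histone acetyltransferase MOF. The helicase MLE remodels the non-coding RNAs roX1 and roX2, which join the complex, and CLAMP is a zinc finger protein that binds GA repeats, a motif of the high-affinity entry sites on the X chromosome. MSL3 carries the complex into the bodies of transcribed genes, where the histone mark H3K36me3 lies.

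The sequences under the summits differed between the classes of peaks, and a few are shown as windows of 61 bases centred on the summit (dm6, plus strand, 5′ to 3′, sequence from the RefSeq release 6 genome). The first set is from shared X peaks of the MLEΔCBD list, picked because they hold a GA repeat. Of the 147 shared X peaks 41 hold one within 100 bp of the summit, and 11 of the 100 lost X peaks do. The stronger shared peaks at *roX1* (rank 1) and *Socs16D* (rank 12) do not. Capitals mark GA repeats of at least 4 units, on either strand.
*roX2* exon, chrX:11580212-11580272: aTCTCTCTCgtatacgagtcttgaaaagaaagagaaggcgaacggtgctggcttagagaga
*Atg5* intron, chrX:7320983-7321043: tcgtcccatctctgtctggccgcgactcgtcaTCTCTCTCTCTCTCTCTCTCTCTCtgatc
*Nup153* intron, chrX:16608039-16608099: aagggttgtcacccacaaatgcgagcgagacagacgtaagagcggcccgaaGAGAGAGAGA

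The second set is from shared autosomal peaks that hold the marked word, a class that ranked high in the MLEΔCBD list. Capitals mark the word ACTGCTTG or its reverse complement CAAGCAGT, called here the autosomal word. It was chosen after the values were seen, as the most frequent 8-letter word under these summits.
*CG34253*, intergenic, chr3L:18088206-18088266: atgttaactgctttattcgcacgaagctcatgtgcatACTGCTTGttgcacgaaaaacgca
*dachs* intron, chr2L:8478126-8478186: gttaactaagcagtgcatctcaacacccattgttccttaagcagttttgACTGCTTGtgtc
*T48*, intergenic, chr3R:26881498-26881558: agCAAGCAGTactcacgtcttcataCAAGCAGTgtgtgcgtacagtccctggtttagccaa
*SNF4Agamma* intron, chr3R:21184906-21184966: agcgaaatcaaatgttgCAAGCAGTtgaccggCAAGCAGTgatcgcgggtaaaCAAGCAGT

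The third set is from the strongest gained peaks that hold the same word, 1 of them on the X chromosome. A peak between genes is named after the nearest gene start.
*bor*, intergenic, chr3R:16260550-16260610: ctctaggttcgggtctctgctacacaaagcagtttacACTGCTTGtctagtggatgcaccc
*CR44800*, intergenic, chr2L:7641806-7641866: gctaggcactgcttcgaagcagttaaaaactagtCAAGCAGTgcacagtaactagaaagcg
*stg1*, intergenic, chrX:21083419-21083479: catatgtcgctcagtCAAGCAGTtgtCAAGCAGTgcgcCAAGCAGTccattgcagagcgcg

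The fourth set is from gained autosomal peaks at promoters that hold the marked word, as 87 of 264 do within 100 bp of the summit. Capitals mark GGTCACAC or its reverse complement GTGTGACC, the most frequent 8-letter word under gained autosomal summits, also chosen after the values were seen. These letters lie within Motif 1, a core promoter motif of *Drosophila* that the protein M1BP binds.
*gukh* promoter, chr3R:18983922-18983982: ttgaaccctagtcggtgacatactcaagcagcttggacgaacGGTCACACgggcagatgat
*Cip4* promoter, chr3L:4364116-4364176: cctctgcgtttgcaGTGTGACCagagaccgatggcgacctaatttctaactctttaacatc
*porin* promoter, chr2L:10850913-10850973: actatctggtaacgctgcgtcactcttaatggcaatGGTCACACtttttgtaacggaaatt

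On the X chromosome the lists held 187 MSL1 peaks in MLEΔCBD males and 247 in MLEWT males. They fell into 40 gained, 147 shared and 100 lost peaks. On the autosomes the 377 peaks of MLEΔCBD males and 42 peaks of MLEWT males fell into 337 gained, 40 shared and 2 lost peaks. The gained count depended on the lists' length: it was 181 with peaks at a global IDR (the authors' measure of reproducibility between peak sets) of 0.001 or less, and 119 with the MLEΔCBD list reduced to its 293 strongest peaks. A peak missing from a list did not reach the authors' reproducibility threshold there, which does not show that MSL1 was absent.

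**Figure D1:**
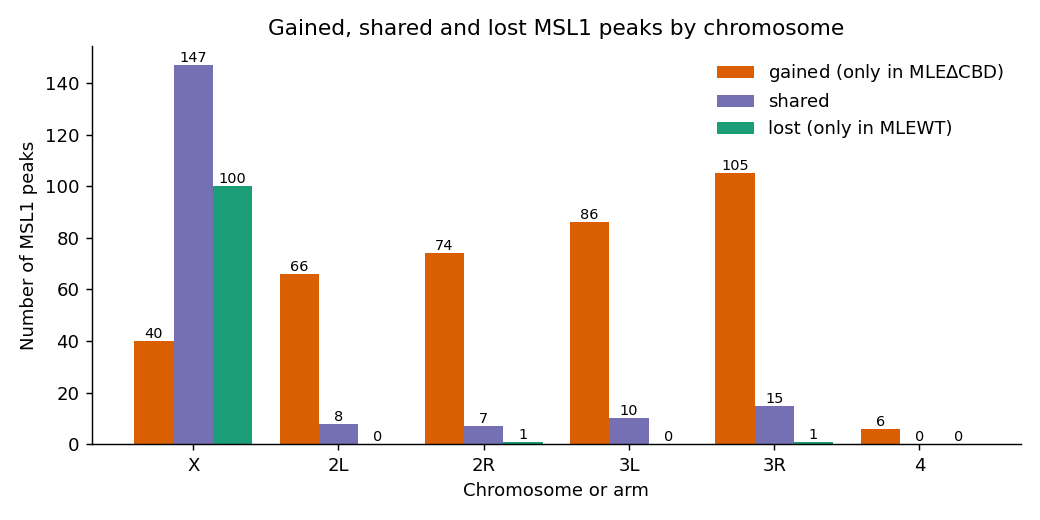
Number of MSL1 peaks per chromosome or arm that were gained (only in MLEΔCBD), shared, or lost (only in MLEWT), with the count above each bar. Lost peaks lie almost all on X (100), while gained peaks number 66 to 105 on each of the 4 large autosomal arms and 40 on X.

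Lost X peaks lay in coding exons more often than the X peaks that were shared. The summit fell in a coding exon for 60 of 100 lost peaks (60.0%, 95% interval 50.2 to 69.1%), against 36 of 147 shared peaks at their MLEWT summits (24.5%, 18.2 to 32.0%). Introns held the summits of 9 lost and 37 shared peaks, and 3′ UTRs those of 22 lost and 48 shared peaks. At a promoter, taken as 200 bp on either side of an annotated start, lay 2 lost and 11 shared summits. With 500 bp it was 10 lost summits and 16 shared summits of the MLEΔCBD list, and with any part of the peak within 200 bp it was 18 lost peaks and 39 shared peaks of the MLEΔCBD list. Counted by gene part, 36 of 96 peaks in coding exons were shared (37.5%, 28.5 to 47.5%), against 37 of 46 in introns (80.4%, 66.8 to 89.3%) and 48 of 70 in 3′ UTRs (68.6%, 57.0 to 78.2%). Peaks inside protein-coding genes lay towards the 3′ end in both classes, at a median of 67.0% of the gene length for lost and 72.4% for shared peaks of the MLEWT list.

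**Figure D2:**
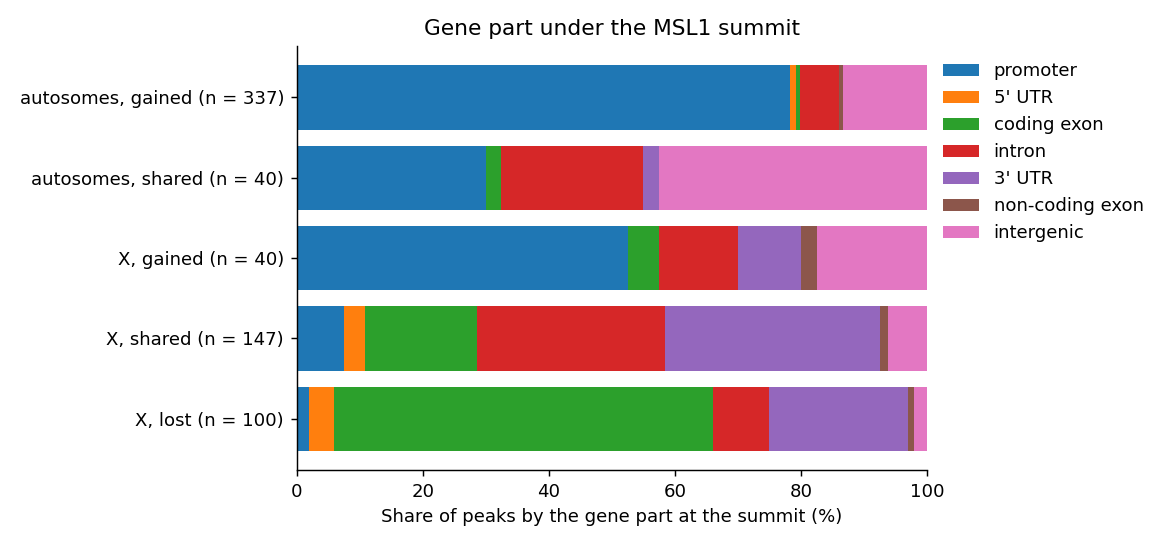
Gene part at the MSL1 summit, as the share of peaks in percent, for gained and shared autosomal peaks, gained and shared X peaks (summits of the MLEΔCBD list), and lost X peaks (summits of the MLEWT list). Promoters take 78.3% of the gained autosomal peaks, and coding exons 60.0% of the lost X peaks.

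The gene parts were not spread evenly over strength, which is the fold enrichment over background that MACS2 assigned to each peak. Among the 83 strongest MLEWT X peaks, 18 of 19 peaks in coding exons and all 64 peaks in other parts were shared. Among the 82 weakest, 5 of 52 in coding exons (9.62%, 4.18 to 20.6%) and 8 of 30 in other parts (26.7%, 14.2 to 44.4%) were shared. In the group between them it was 13 of 25 in coding exons (52.0%, 33.5 to 70.0%) and 39 of 57 in other parts (68.4%, 55.5 to 79.0%). Coding exons held 52 of the 82 weak and 19 of the 83 strong peaks. Within each group the coding exon share was the lower one, and the intervals of coding exons and other parts overlapped.

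The 5 strongest lost X peaks had ranks 73 to 122.5 in the MLEWT list. They lay at *deltaCOP*, a coatomer subunit (X:1859447-1861572, 2126 bp wide, fold enrichment 4.79), *nej*, the CBP histone acetyltransferase (500 bp, 4.18), *BCL7-like*, a SWI/SNF subunit (934 bp, 3.82), *X11L*, a synaptic adaptor protein (451 bp, 3.82), and *dx*, a regulator of Notch signalling (776 bp, 3.78). All 5 held an MLEWT MSL2 peak and an MLEWT MSL3 peak, and 3 of them, *deltaCOP*, *BCL7-like* and *dx*, also held an MLEΔCBD MSL3 peak. The genes whose bodies held the most lost peaks were *CG10555*, *Tomosyn* and *Trf4-1* with 3 each, and 10 genes held 2. Of these 10, *nocte* also held 3 shared peaks, *nej* 2, *CG2186* and *Smr* 1 each, and *CG8944*, *Nemp*, *Smyd3*, *Usp2*, *mei-P26* and *tay* 0. *CG10555* and *Tomosyn* held 1 shared peak each and *Trf4-1* 0. Lost peaks overlapped 98 protein-coding genes of the X chromosome, and 25 of these also held a shared peak. Counted by summit over genes of every kind, 91 of the 2813 annotated X genes (3.23%) held a lost peak.

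Lost peaks tended to lie near shared ones. The median distance from a lost summit to the nearest shared summit of the MLEWT list was 16 kb, and 45 of 100 were within 10 kb (45.0%, 35.6 to 54.8%). From a shared summit to the next shared summit the median was 56.1 kb, with 23 of 147 within 10 kb (15.6%, 10.7 to 22.4%). Along the chromosome, the lost share of the MLEWT peaks was 31.1% (21.7 to 42.3%) in the distal part up to 7.85 Mb, 42.4% (33.2 to 52.3%) in the middle part up to 15.7 Mb and 47.3% (36.3 to 58.5%) in the proximal part, with intervals that overlap. With peaks of a list within 1 kb of each other joined, 65.1% of MLEWT X peaks were shared, against 59.5% (53.3 to 65.4%) with the peaks as deposited.

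Overlap with the MSL2 and MSL3 lists of the same lines, which played no part in the classes, differed between lost and shared X peaks. The MSL2 lists held 92 peaks in MLEΔCBD and 222 in MLEWT, and the MSL3 lists 2301 and 2915. A shorter list leaves fewer peaks to overlap, in every class. None of the 100 lost peaks held an MLEΔCBD MSL2 peak, with a 95% interval up to 3.70%, and 47 held an MLEWT MSL2 peak. Among the 147 shared peaks, 55 held an MLEΔCBD MSL2 peak and 139 an MLEWT MSL2 peak. An MLEΔCBD MSL3 peak was held by 85 of 100 lost peaks (85.0%, 76.7 to 90.7%) and 143 of 147 shared peaks (97.3%, 93.2 to 98.9%), and an MLEWT MSL3 peak by all of both. Of the 19 MLEWT X peaks without an MLEΔCBD MSL3 peak 4 were shared (21.1%, 8.51 to 43.3%), against 143 of 228 with one (62.7%, 56.3 to 68.7%). Seen from MSL2, 139 of the 186 MLEWT X peaks with an MLEWT MSL2 peak were shared (74.7%, 68.0 to 80.4%), against 8 of 61 without one (13.1%, 6.80 to 23.8%). Strength moved with this split as well: all 83 of the strongest MLEWT X peaks held an MSL2 peak, and among the 82 weakest 9 of 31 with an MSL2 peak (29.0%, 16.1 to 46.6%) and 4 of 51 without (7.84%, 3.09 to 18.5%) were shared.

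A GA repeat of at least 4 units within 100 bp of the summit was found in 41 of 147 shared X peaks (27.9%, 21.3 to 35.6%) and 11 of 100 lost ones (11%, 6.25 to 18.6%), against 1.53% of all X windows of the same 201 bp. Repeats were also more frequent in strong peaks. Among the strongest MLEWT X peaks all 26 with a repeat and 56 of 57 without were shared. Among the weakest it was 2 of 8 and 11 of 74, and in the group between them 13 of 18 and 39 of 64. The intervals overlapped within each group. The repeats sat at the summit. In the MLEΔCBD list, 18.4% of the shared X peaks had one in the 50 bp around the summit, and at most 2.04% in any 50-bp bin from 150 bp outwards. A stricter rule kept only peaks of a global IDR up to 0.001 in both lists. The shares were then 25.6% of lost and 29.0% of shared X peaks, so the difference was not seen. Under this rule a kept MLEWT peak also counts as lost when only its MLEΔCBD partner was removed. The lost share stayed lower with lists of equal length (12.7% against 29.5%) and with the second peak set (12.5% against 28.9%). It was also lower with peaks within 1 kb joined (13.3% against 27.7%) and with repeats counted within 250 bp (13% against 32.7%). The most frequent 8-letter word under lost X summits was instead GCAGCAGC, part of a CAG repeat, in 20 of 100 lost peaks (20.0%, 13.3 to 28.9%), against 8 of 147 shared peaks at their MLEWT summits (5.44%, 2.78 to 10.4%) and 3.86% of all X windows. These shares were not split by gene part, and lost summits lay in coding exons more often than shared ones. The word was picked for its count in lost peaks, which is therefore a description. It shares the letters AGCAG with the autosomal word.

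The 40 gained X peaks were narrow and more often at promoters than shared X peaks. Their summits lay at promoters in 21 of 40 (52.5%, 37.5 to 67.1%), against 11 of 147 shared X peaks (7.48%, 4.23 to 12.9%), and their median width was 349.5 bp against 1330 bp. Of the 21 at promoters, 9 held the Motif 1 word (42.9%), and of the 19 elsewhere, 9 held the autosomal word (47.4%, 27.3 to 68.3%). Among windows centred on X starts 5.20% held the Motif 1 word, and among all X windows 0.631% held the autosomal word. MSL3 peaks of MLEΔCBD males lay in 30 of the 40, and MSL3 peaks of MLEWT males in 29, so most of these places held an MSL3 peak in each line's own list. The strongest were near *stg1*, a stargazin-like membrane protein gene (X:21083247-21083684, rank 59 of 577), near *Mur11Da*, a mucin-related gene (rank 67), at the promoters of *Axs* (rank 82) and *mew*, which encodes an integrin alpha subunit (rank 109), and near the non-coding RNA gene *CR40469* (rank 115). The first 4 held 1 to 3 copies of the autosomal word, as the *stg1* sequence shows with 3.

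The gained autosomal peaks were narrow peaks at gene starts. The summit lay at a promoter for 264 of 337 (78.3%, 73.6 to 82.4%), in an intron for 21 and between genes for 45. At promoters the summit lay upstream of the nearest start in 240 of 264 cases, at a median of 50 bp upstream. The nearest start belonged to a protein-coding gene for 260 of the 264, and to a tRNA gene for 3. They were spread over the arms in similar density, with 2.81 gained peaks per Mb on 2L, 2.93 on 2R, 3.06 on 3L and 3.27 on 3R, against 1.70 on X. Chromosome 3, which carries the transgene and in MLEWT males the balancer, thus had 86 and 105 on its arms, and chromosome 2 had 66 and 74. Of the 337, 10 were 1000 bp wide or more, among them peaks over *Lerp* (6521 bp), *msl-2* (1968 bp), *Hsp83* (1767 bp) and the promoter shared by *Sc2* and *Ubi-p63E* (1688 bp).

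The 40 shared autosomal peaks differed from the gained ones in place. Their MLEΔCBD summits lay between genes in 17, at promoters in 12 (95% interval 18.1 to 45.4%) and in introns in 9. Of these 40 peaks 38 held an MLEΔCBD MSL3 peak and 39 an MLEWT one, and none held an MSL2 peak of either line, with an interval up to 8.76%. Of the 337 gained peaks, 210 held an MLEΔCBD MSL3 peak (62.3%, 57.0 to 67.3%), 165 an MLEWT MSL3 peak (49.0%, 43.7 to 54.3%) and 8 an MLEΔCBD MSL2 peak. The share of all autosomal starts with an MSL3 peak was not counted, so these shares have no background beside them. The 2 lost autosomal peaks were weak, with ranks 287 and 291 of 293, and lay in the coding exons of *tn*, a TRIM protein gene, and *Hsp68*, a heat shock gene.

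Gained peaks were counted at the starts of genes in lists chosen by function. Of all annotated genes of the X chromosome and autosomes, 1.98% had a start within 200 bp of a gained summit, and of protein-coding genes 2.52%. Among cytosolic ribosomal protein genes it was 15 of 87 (17.2%, 10.7 to 26.5%), and no MLEWT summit lay at a start of this list. They included *RpL3* (rank 110, fold enrichment 5.51), *RpL23* (rank 185, 4.24), *RpL30* (rank 207, 3.98) and *RpL7* (rank 262, 3.48), while *RpL32* at rank 556 was near the end of the list. Oxidative phosphorylation genes had 8 of 87 (9.20%, 4.73 to 17.1%), with *ATPsynC*, a subunit of the ATP synthase, at rank 108. Translation initiation factors had 4 of 44 (9.09%, 3.59 to 21.2%) and proteasome genes 3 of 48 (6.25%, 2.15 to 16.8%). Mitochondrial ribosomal protein genes had 2 of 73 (2.74%, 0.755 to 9.45%), heat shock genes 1 of 26 and histone genes 1 of 115. tRNA genes had 3 of 290 and snRNA genes 0 of 32, with an interval up to 10.7%. Several starts are shared by divergent neighbours, and such a peak counts for both genes.

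Among the genes of dosage compensation proteins and cofactors, 1 of 10 had a gained peak at a start. This was *msl-2*, which encodes the male-specific subunit. Its start on 2L, shared with *ND-PDSW*, a subunit of respiratory complex I, held a 307-bp peak of rank 315 (fold enrichment 3.13), and a wider peak of rank 559 lay over its coding exon (2.27). Neither was in the MLEWT list. No MSL1 peak lay at *msl-1*, *msl-3*, *mle*, *mof* or *Clamp* in either list. The promoter next to *Ubi-p63E*, whose sequence also drives the transgene, held a gained peak of rank 445 (fold enrichment 2.67). Reads from the transgene copies and from the gene itself are mapped to the same place, and the MLEΔCBD males have more copies, so the part of the transgene in this peak cannot be told apart.

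The autosomal word lay within 100 bp of the summit in 36 of 40 shared autosomal peaks, the class it was chosen from. Outside that class it was found in 59 of 337 gained autosomal peaks (17.5%, 13.8 to 21.9%) and 11 of 40 gained X peaks (27.5%, 16.1 to 42.8%). Shared X peaks held it in 2 of 147 at their MLEΔCBD summits, and lost X peaks in 3 of 100. The word was in 0.571% of all autosomal windows of 201 bp, 0.859% of those centred on an autosomal start and 0.631% of all X windows. Among gained autosomal peaks it was in 41 of 73 away from promoters (56.2%, 44.8 to 67.0%) and 18 of 264 at promoters (6.82%, 4.36 to 10.5%). The Motif 1 word was picked for its count in these 337 peaks, 264 of them at promoters, so its shares there are a description. It was in 87 of 264 at promoters (33.0%, 27.6 to 38.8%) and 7 of 73 elsewhere (9.59%, 4.72 to 18.5%). It was in 4.68% of windows centred on an autosomal start, in 1 of 40 shared autosomal peaks and in none of the 100 lost X peaks. Both words lay together under 1 of the 337 gained summits, and neither under 185. The DNA replication-related element TATCGATA, another core promoter motif, was in 26 of the 264 gained promoter peaks (9.85%, 6.81 to 14.0%), against 4.93% of windows centred on an autosomal start. Each word was searched on both strands, and a match describes the sequence and not a bound factor.

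**Figure D3:**
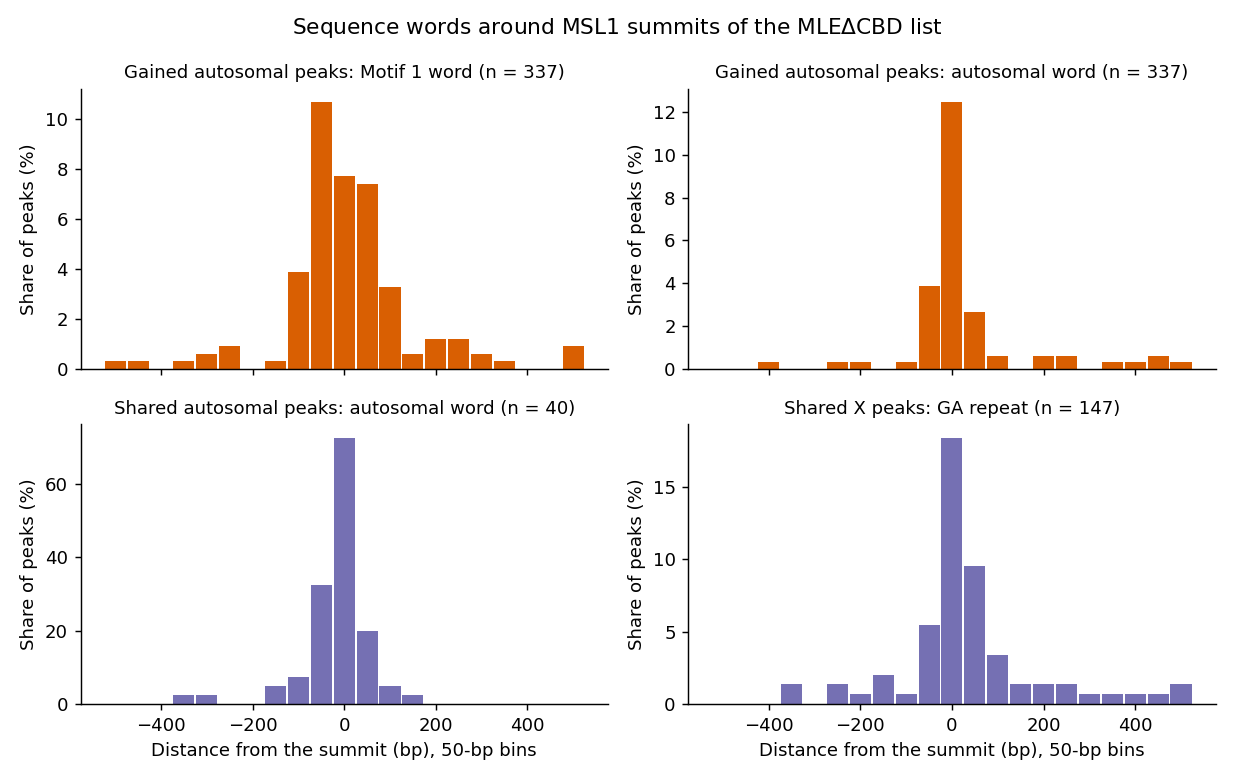
Share of peaks (percent) with the word in each 50-bp bin of distance from the MSL1 summit of the MLEΔCBD list, for the Motif 1 word and the autosomal word in gained autosomal peaks, the autosomal word in shared autosomal peaks, and the GA repeat in shared X peaks. The bin at the summit holds the autosomal word in 72.5% of shared and 12.5% of gained autosomal peaks. For the Motif 1 word the highest bin is the one at -50 bp (10.7%), against 7.72% at the summit. The autosomal word was chosen within 100 bp of shared autosomal summits, and the Motif 1 word within 100 bp of gained ones. Their place near those summits is therefore built in.

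Strength also differed between gained autosomal peaks with the autosomal word and those with the Motif 1 word, while 185 of the 337 held neither. The 59 with the autosomal word had a median rank of 194 and a median fold enrichment of 4.12, against rank 399.75 and 2.82 for the 278 without it. The word was in 26 of the 50 strongest gained autosomal peaks and in 0 of the 50 weakest. The 94 with the Motif 1 word had a median rank of 409.5, and the word was in 4 of the 50 strongest and 22 of the 50 weakest. An MLEΔCBD MSL3 peak was present at 62.7% of those with the autosomal word and 50.0% of those with the Motif 1 word, and an MLEWT MSL3 peak at 44.1% and 44.7%. The strongest gained autosomal peaks were near *bor*, which encodes a mitochondrial AAA ATPase (3R:16260325-16261052, rank 29, fold enrichment 14.3), near *CR44800* (rank 36, 12.3), in an intron of *Spn*, the spinophilin gene (rank 37, 12.1), and at the promoters of *bug* (rank 45, 10.0) and *lace*, which encodes a subunit of serine palmitoyltransferase (rank 51, 9.37). Each of the 5 held 1 copy of the autosomal word.

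Ranks of shared peaks were compared as relative ranks, the rank by fold enrichment divided by the length of the list, with 0% for the strongest. Shared autosomal peaks stood far higher in the MLEΔCBD list, with a median relative rank of 4.77%, against 52.9% in the MLEWT list. All 40 moved in this direction, by a median of -42.2 percentage points (binomial interval of the median -61.3 to -31.8). Shared X peaks stood at a median of 29.3% in the MLEΔCBD list and 29.2% in the MLEWT list, and the median change was 1.20 percentage points (0.237 to 2.98, where a positive change is a lower place in the MLEΔCBD list), with 59 higher and 88 lower in the MLEΔCBD list. By fold enrichment itself all 40 shared autosomal peaks were higher in MLEΔCBD, with medians of 14.5 in the MLEΔCBD list and 3.28 in the MLEWT list. Of the 147 shared X peaks 82 were higher in MLEΔCBD, with medians of 4.46 in the MLEΔCBD list and 4.47 in the MLEWT list. Since 337 gained autosomal peaks lengthen the MLEΔCBD list below most shared peaks, a relative rank is not a measure of signal.

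**Figure D4:**
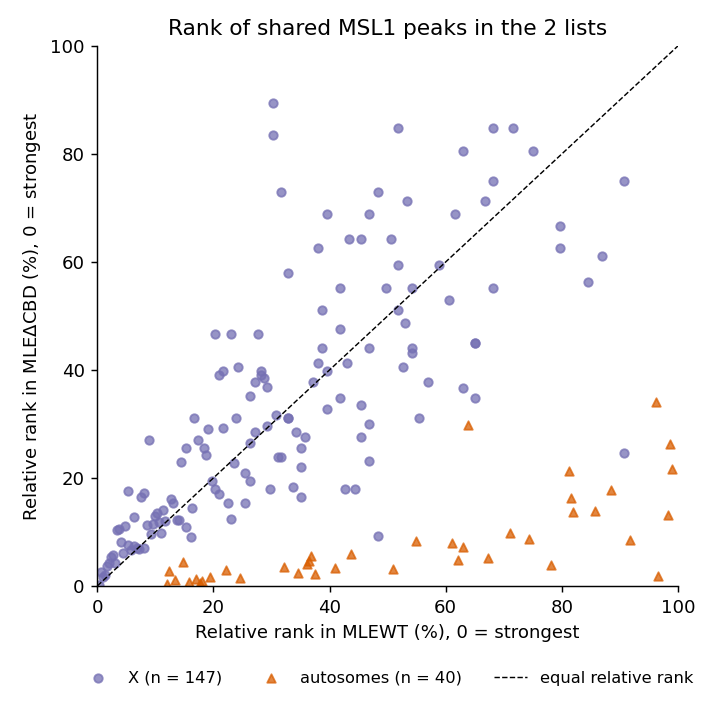
Relative rank by fold enrichment (percent, 0 = strongest) of each shared MSL1 peak in the MLEΔCBD list (vertical axis) against the MLEWT list (horizontal axis), with X peaks as circles, autosomal peaks as triangles and equality as a dashed line. All 40 autosomal peaks lie under the line, and the X peaks scatter on both sides of it.

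Of the first 20 peaks of the MLEΔCBD list 16 were shared autosomal peaks and 4 shared X peaks, while the first 20 of the MLEWT list were all shared X peaks. The autosomal peaks that stood highest were *bun*, a TSC22 family gene (rank 2 in the MLEΔCBD list, 35 in the MLEWT list), the 3′ UTR of the Hox gene *Antp* (rank 3 and 52), the promoter of *mRpL13*, a mitochondrial ribosomal protein gene (rank 4 and 46), *CG13323* (rank 5 and 53) and *CR44282* (rank 6 and 39). Their fold enrichments in the MLEΔCBD list were 33.7 to 40.0, close to the 40.7 of *roX1*, which was first in both lists. The largest moves up were at *CG33777* (rank 11 in MLEΔCBD, 283 in MLEWT), *Agpat4* (76 and 288), *InR*, the insulin receptor gene (49 and 269), *PolrMT*, the mitochondrial RNA polymerase gene (125 and 290), and *Eaat2*, a glutamate transporter gene (22 and 229). Even the smallest moves, at *CheB93b* (16 and 36) and *CG14990* (26 and 43), were upward.

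On the X chromosome the largest moves up were at *mys*, which encodes an integrin beta subunit (rank 142 in MLEΔCBD, 266 in MLEWT), and near *Set2*, the H3K36 methyltransferase gene (53 and 141.5). These are also the only 2 shared X peaks with the autosomal word under the MLEΔCBD summit, with 1 copy at *mys* and 3 near *Set2*, and neither held an MSL2 peak of either line. The *mys* summits of the lists lay 467 bp apart and those of the *nej* pair 393 bp, so these ranks belong to different summits and neither pair is shared under a rule of summits within 250 bp. The largest moves down were at *nej* (515.5 and 88.5), *sws*, an esterase gene (481.5 and 88.5), and the promoter of *CG15771* (420.5 and 92.5). Of the strongest shared X peaks, *CG9132* had rank 9 in MLEΔCBD and 3 in MLEWT, *Socs16D* 12 and 4, *roX2* 15 and 2, and *Atg5* 21 and 5.

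Widths of shared peaks differed in opposite directions on X and autosomes. Shared X peaks were narrower in MLEΔCBD males in 106 of 147 pairs and wider in 41, with medians of 1330 bp in the MLEΔCBD list and 1571 bp in the MLEWT list and a median ratio of 0.877 (0.841 to 0.943). Shared autosomal peaks were wider in 36 of 40 pairs, with medians of 584.5 bp in MLEΔCBD and 413.5 bp in MLEWT and a median ratio of 1.45 (1.34 to 1.62). The widths of the second peak set gave median ratios of 0.879 on X and 1.51 on the autosomes. Between the pair of peak sets of one list the interquartile range of width ratios ran from 0.886 to 1.13 in MLEΔCBD and from 0.902 to 1.15 in MLEWT. Over all peaks of a list the median ratio of the second to the first set was 1.01 in MLEΔCBD and 1.00 in MLEWT, and the sets may be pseudoreplicates and not libraries. A MACS2 peak is wider where the signal is stronger or the library deeper, and depth was not given in the lists.

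**Figure D5:**
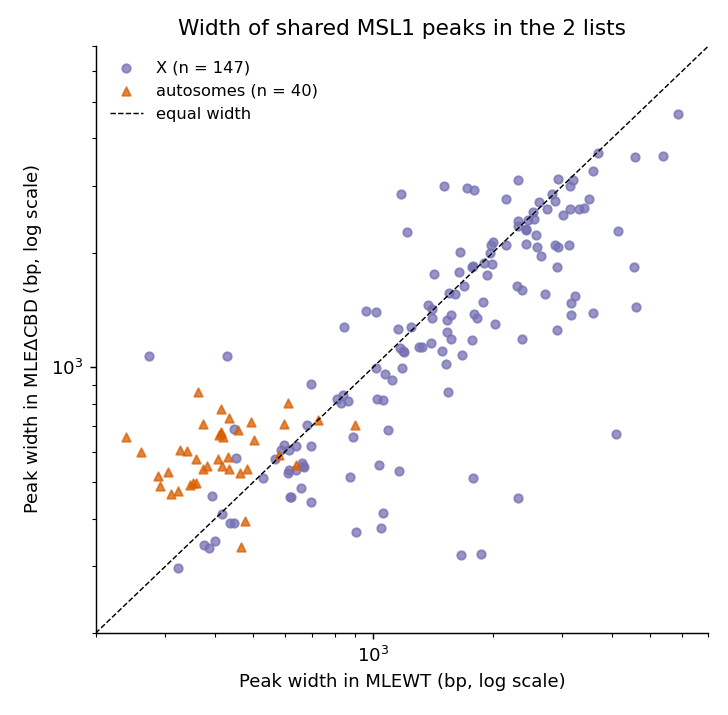
Width (bp, log scale) of each shared MSL1 peak in the MLEΔCBD list (vertical axis) against the MLEWT list (horizontal axis), with X peaks as circles, autosomal peaks as triangles and equal widths as a dashed line. Of the autosomal peaks 36 of 40 lie above the line, and of the X peaks 106 of 147 lie below it.

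The median width ratio of shared X peaks, MLEΔCBD over MLEWT, was below 1 in most gene parts. It was 0.904 in the 36 shared X peaks with a coding exon under the MLEWT summit, 0.893 in the 48 in 3′ UTRs, 0.840 in the 37 in introns, 0.919 in the 7 between genes, 0.672 in the 5 in 5′ UTRs and 1.02 in the 11 at promoters, whose quartiles of 0.849 and 1.16 overlap those of the other parts. The summits of a pair lay a median of 26 bp apart on X, with 135 of 147 within 250 bp, and 15.5 bp apart on the autosomes, with 40 of 40 within 250 bp. In all, 67 of the 147 MLEΔCBD X peaks lay wholly inside their MLEWT partner. The smallest width ratios were at *wapl*, a cohesin release factor gene (670 bp in MLEΔCBD, 4103 bp in MLEWT), *RhoGAPp190* (324 and 1874 bp) and *sws* (322 and 1669 bp). At *RhoGAPp190* the second peak set gave a ratio of 1.06. The largest ratios were at *Paics* and *pira*, whose MLEWT peaks of 272 and 429 bp met the same MLEΔCBD peak of 1073 bp, and at *hiw* (2853 and 1173 bp). Several strong sites from the gene lists were also wider, as at *roX2* (3006 bp in MLEΔCBD, 1509 bp in MLEWT), *Stt3A*, an oligosaccharyltransferase subunit gene (2967 and 1726 bp), and *CG4645* (1784 and 1644 bp). The second peak set gave 3539 bp in MLEΔCBD and 1675 bp in MLEWT at *roX2* and 1833 and 1531 bp at *CG4645*, but at *Stt3A* 1766 and 1746 bp, so that difference rests on 1 set. The *roX1* peak (X:3860235-3862330 in MLEΔCBD) measured 2096 bp in MLEΔCBD and 1984 bp in MLEWT, and in the second set 1830 and 2102 bp.

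Outside the X chromosome and the autosomes, the MLEΔCBD list held 13 peaks and the MLEWT list 4. All 4 of the MLEWT list were shared, with 1 on the Y chromosome, 1 on the mitochondrial genome at *mt:ND2* (rank 576 in MLEΔCBD, 292 in MLEWT) and 2 on unplaced sequences. The 9 gained peaks were all on unplaced sequences, and 6 of them held an MLEΔCBD MSL2 peak. The mitochondrial peak had fold enrichments of 1.68 in MLEΔCBD and 1.62 in MLEWT, near the lowest of each list.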

How the data were processed

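MSL1 peaks were compared between the 2 lines. The members, words and gene lists were chosen with earlier results of these data known. Per the paper's methods, reads were trimmed (cutadapt) and mapped to dm6 (Bowtie2), and the peaks that MACS2 called were filtered with IDR, which keeps peaks ranked alike in a pair of peak sets. The authors deposited 1 list of 20 columns per protein and line. The fold enrichment is a ratio over local background as the authors deposited it, and ranks use it, with tied peaks sharing a mean rank. The −log10 p, −log10 q and −log10 IDR values are also the authors' deposited values. The lowest −log10 global IDR was 2.00 in MLEΔCBD and 2.01 in MLEWT. Each deposited start and end equals that of the first peak set. Whether the sets are the libraries or pseudoreplicates is not given in the sources used here, and neither is read depth. Starts counted from 0 were changed to count from 1.

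Gene parts came from Ensembl release 115 (BDGP6.54, the assembly of dm6, transposable elements left out), with promoters taken before other parts, and sequences from the RefSeq genome. Wilson intervals and binomial intervals of medians are at the 95% level. Named peaks followed a rule: the 5 strongest of each class, the largest differences in rank and, on X, in width, genes with the most lost peaks, and list members. The code was tested on planted peaks and run with Python 3.11.15, pandas 2.3.3, numpy 2.4.6, scipy 1.17.1 and matplotlib 3.10.9. The preimmune library of MLEWT males was not used here.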

Additional observations from a re-analysis of the deposited data

How the results depend on the processing

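The shares of peaks on X, shared and gained, the gained autosomal count, the shares at promoters, with an MLEΔCBD MSL3 peak and with a GA repeat, and the medians of width ratio and rank change were recomputed under other overlap rules, thresholds, list lengths, peak sets, windows and summaries, as far as each applied. The other gene parts, the other words, the distances, the gene lists and the MSL2 overlaps were not. Of 115 recomputed values, 90 stayed within the interval of the reported value (for the count, within 1.5 times) and 25 moved outside it. A change of direction was defined only for the medians of width ratio and rank change, and 0 of these changed direction. No paired analysis was possible because each line has 1 list and its pair of peak sets is not labelled with replicates, and for the same reason no replicate could be left out. A −log10 q of 3 or more removed no peak, so the values under it could not move and count among the 90.

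With a global IDR of 0.001 or less, which left 348 MLEΔCBD and 179 MLEWT peaks, the MLEΔCBD list had 38.2% of peaks on X, 71.5% of MLEWT X peaks and 100% of MLEWT autosomal peaks were shared, and 181 autosomal peaks were gained, of which 68.5% were at promoters and 75.7% held an MLEΔCBD MSL3 peak. Of the lost X peaks, 9.30% were then at promoters and 25.6% held a GA repeat. With the MLEΔCBD list reduced to its 293 strongest peaks, X held 44.4% of them, 45.7% of MLEWT X peaks were shared, 13.8% of MLEΔCBD X peaks and 119 autosomal peaks were gained (62.2% at promoters, 76.5% with an MLEΔCBD MSL3 peak), and the shared X peaks stood 17.1 percentage points lower. A shorter MLEΔCBD list can only lower the shared share and the gained count.

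With promoters of 500 bp, 87.5% of gained autosomal and 10.0% of lost X peaks were at one. With any part of the peak counted, it was 84.6% of gained autosomal, 18% of lost X and 26.5% of shared X peaks. With 3 GA units, 38.8% of shared and 23.0% of lost X peaks held a repeat. The mean of log ratios gave a width ratio of 0.831 on X. The change of rank of shared X peaks was 4.48 percentage points by the −log10 p of the second set and 12 among shared peaks only, where the sum of ranks is fixed and the higher autosomal peaks place the X peaks lower by construction.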
